A study of Mus musculus with 16 samples.

Results

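DNA methylation was described at the promoters of 42 genes of the germline and meiosis programme in mouse embryonic stem cells (mESCs) and in embryoid bodies (EBs). The genes were taken by name, with earlier results of these data known. A gene's CpGs were those within 1 kb of a transcription start site (TSS) of one of its protein-coding transcripts, with the reads of both strands of a CpG summed. The level of a gene in a library was the mean percentage of methylation of its CpGs that were covered by at least 10 reads, where at least 2 such CpGs were found. Of the 42 genes, 36 had a level in at least 1 library, 20 had one in all 16 libraries and 6 had none. For comparison, 15402 of the 22359 protein-coding genes had a level in at least 1 library and 11525 had one in all 16.

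Germline genes act in the making of eggs and sperm, and most of them are silent in other tissues. Many have CpG-rich promoters that gain DNA methylation when the embryo implants, and loss of this methylation is known to accompany their expression outside the germline. In embryonic stem cells they are also held down by a Polycomb complex, PRC1.6, which reaches DNA through the MGA and MAX proteins at the E-box CACGTG and through E2F6 at its own site.

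Methylation was measured by reduced representation bisulfite sequencing (RRBS), which reads cytosines near restriction sites, in 8 groups of E14 mESCs (129/Ola) with 2 replicates each. YP-mESCs are young-passage cells and OP-mESCs are the same line after prolonged culture in serum and LIF. OP-S33Y #1 and OP-S33Y #2 are E14 lines, each grown from 1 clone, that overexpress S33Y β-catenin, a mutant that escapes degradation, and that were kept in culture as the OP-mESCs were. The other groups are mESCs transduced with a control shRNA (mESC shCtrl) or with an shRNA against β-catenin (mESC shβcat #1), and EBs formed from each after LIF was withdrawn (EB shCtrl and EB shβcat #1). The comparisons ask how germline promoters differed with long culture, with stable β-catenin, with less β-catenin and with differentiation.

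The libraries held 18872150 to 40478303 reads on CpGs with at least 10 reads, and OP-mESC replicate 2 covered the fewest CpGs, 413266. Chromosome 13 is missing from YP-mESC replicate 2, and Ddx4, which lies there, could not be compared with YP-mESC. Over the 11525 promoters with a level in every library, the median level was 0.467% to 0.683% in the 8 libraries of YP-mESC, OP-mESC and the S33Y clones and 2.87% to 5.02% in the 8 libraries of the shRNA lines. These sets were therefore never tested against each other. Neither the level of β-catenin nor the expression of any germline gene is measured by RRBS, so the labels could not be checked against them. In a bulk library a level between 0 and 100% cannot tell a partly methylated promoter in every cell from a fully methylated one in some cells.

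The sequence just before the TSS is shown for 5 members, chosen after their values were seen, that cover the range found below: Mael, Ddx4, Sohlh2 and Sycp3, which were called in at least 1 comparison, and Ddx25, which was nearly unmethylated in every library. Each run is the 250 bases before the TSS in mm9, read 5′ to 3′ on the gene's strand, with CpGs in capitals. The windows are chr1:168168876-168169125 (minus strand) for Mael, chr13:113442519-113442768 (minus) for Ddx4, chr3:54985700-54985949 (plus) for Sohlh2, chr10:87922064-87922313 (plus) for Sycp3 and chr9:35366056-35366305 (minus) for Ddx25.
Mael: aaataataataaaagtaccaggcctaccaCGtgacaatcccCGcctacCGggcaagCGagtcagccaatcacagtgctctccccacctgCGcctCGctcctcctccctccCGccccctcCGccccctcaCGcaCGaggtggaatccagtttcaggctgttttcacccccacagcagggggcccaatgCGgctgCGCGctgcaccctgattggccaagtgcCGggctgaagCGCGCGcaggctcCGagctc
Ddx4: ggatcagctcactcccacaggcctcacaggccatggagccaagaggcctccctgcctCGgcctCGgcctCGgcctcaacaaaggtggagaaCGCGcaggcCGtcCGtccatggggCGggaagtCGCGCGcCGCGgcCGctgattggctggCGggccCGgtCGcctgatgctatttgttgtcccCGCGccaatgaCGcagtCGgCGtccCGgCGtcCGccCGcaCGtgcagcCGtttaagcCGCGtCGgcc
Sohlh2: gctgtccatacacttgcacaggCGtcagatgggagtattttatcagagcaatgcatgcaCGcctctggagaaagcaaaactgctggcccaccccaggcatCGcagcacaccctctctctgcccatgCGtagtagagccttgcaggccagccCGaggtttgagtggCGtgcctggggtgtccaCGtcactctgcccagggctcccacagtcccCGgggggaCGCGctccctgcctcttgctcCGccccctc
Sycp3: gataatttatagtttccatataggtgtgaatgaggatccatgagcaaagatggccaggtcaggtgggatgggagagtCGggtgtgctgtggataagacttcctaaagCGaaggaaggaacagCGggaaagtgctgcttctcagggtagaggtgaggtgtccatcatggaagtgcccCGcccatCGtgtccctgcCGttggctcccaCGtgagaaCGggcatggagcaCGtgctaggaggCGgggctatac
Ddx25: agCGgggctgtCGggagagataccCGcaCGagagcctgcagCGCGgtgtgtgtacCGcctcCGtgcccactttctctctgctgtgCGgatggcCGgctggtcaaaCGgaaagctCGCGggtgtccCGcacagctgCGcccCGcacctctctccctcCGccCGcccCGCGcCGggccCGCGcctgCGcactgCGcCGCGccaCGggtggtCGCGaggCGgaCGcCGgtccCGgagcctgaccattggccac

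These windows differed in CpG number and in what RRBS could read of them. The Ddx25 window held 34 CpGs, of which 25 were measured in at least 1 library, and the Ddx4 window held 31, of which 24 were measured. The Mael window held 18 CpGs, 12 of them measured, and the Sohlh2 window 11, 4 of them measured. Of the 10 CpGs in the Sycp3 window none was measured, and the Sycp3 level came from 22 CpGs between 56 and 466 bases after the TSS, in 17 cases in an intron. On 5 CpGs of the Mael window read in every library, the mean level was 33.5% in YP-mESC, 12.4% in OP-mESC and 65.3% in EB shCtrl. On 12 such CpGs of the Ddx25 window it was 0.640%, 0.189% and 0.391%. The 2 windows thus lay far apart in level while both were dense in CpGs.

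Across the members, 840 CpGs were read in at least 1 library, and 233 of them lay upstream of or outside the annotated coding transcripts. The others were intronic (314), in coding exons (120) or in the non-coding part of exons (173). Sohlh2, a transcription factor of early oogenesis and spermatogenesis, had CpGs on both sides of its TSS. Its 10 shared CpGs within 250 bases of the TSS had a mean level of 43.7% in YP-mESC, 23.5% in OP-mESC and 85.2% in EB shCtrl. Its 11 shared CpGs farther away had 79.7%, 30.9% and 94.4%. The flank was therefore above the core in each of these groups, and the flank lost more in OP-mESC. Among 7 members with at least 2 shared CpGs in both zones, the core was below the flank in 5 in YP-mESC, in 5 in OP-mESC and in 4 in EB shCtrl, and Sycp1 was one of those that ran the other way (60.9% in the core and 37.0% in the flank in YP-mESC).

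**Figure D1:**
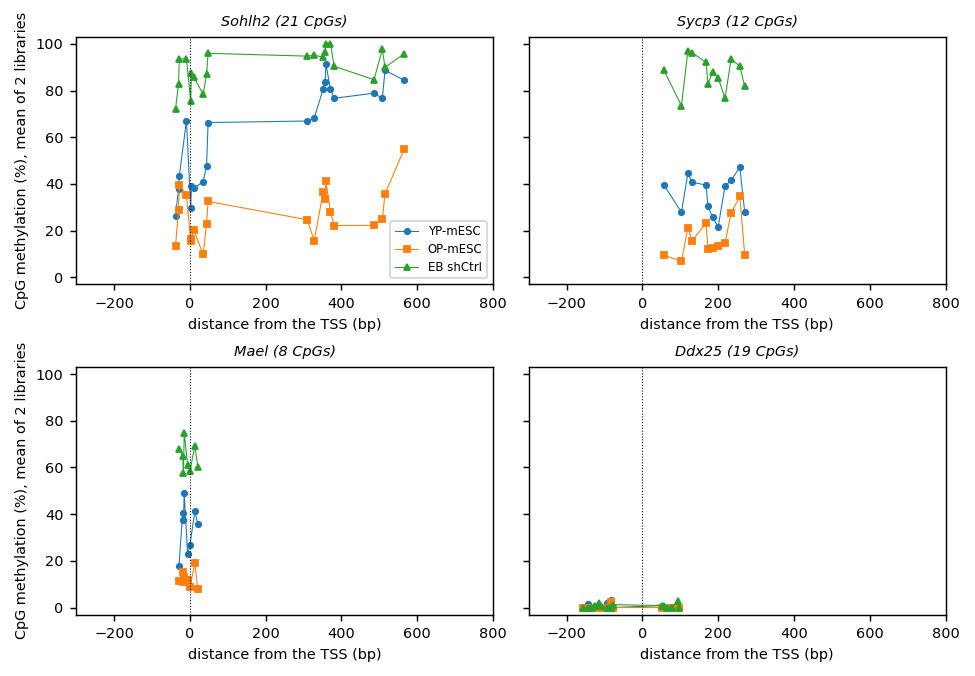
Methylation of single CpGs (percent, mean of the 2 libraries) against the distance from the TSS (bp) at Sohlh2, Sycp3, Mael and Ddx25 in YP-mESC, OP-mESC and EB shCtrl. At Sohlh2, Sycp3 and Mael the OP-mESC points lie mostly below those of YP-mESC and the EB points above, and at Ddx25 all points lie near 0.

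The members differed widely in level. In YP-mESC, 6 of the 27 members with a level in both replicates were above 80%, 17 were between 20% and 80% and 4 were below 20%. In OP-mESC the numbers were 3, 7 and 11 of 21, and in EB shCtrl 16, 12 and 4 of 32. Over the 20 members with a level in every library, the mean level was 47.3% ± 2.19 (SD, n = 2) in YP-mESC, 31.9% ± 1.63 in OP-mESC, 43.3% ± 1.66 in OP-S33Y #1 and 41.1% ± 0.369 in OP-S33Y #2. In the shRNA lines it was 49.1% ± 0.742 in mESC shCtrl, 49.0% ± 1.02 in mESC shβcat #1, 60.5% ± 0.637 in EB shCtrl and 60.6% ± 0.153 in EB shβcat #1. The mean over the 11525 promoters stayed between 5.33% in OP-mESC and 13.2% in EB shβcat #1. OP-mESC was the lowest group and the EBs were the highest by both measures.

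**Figure D2:**
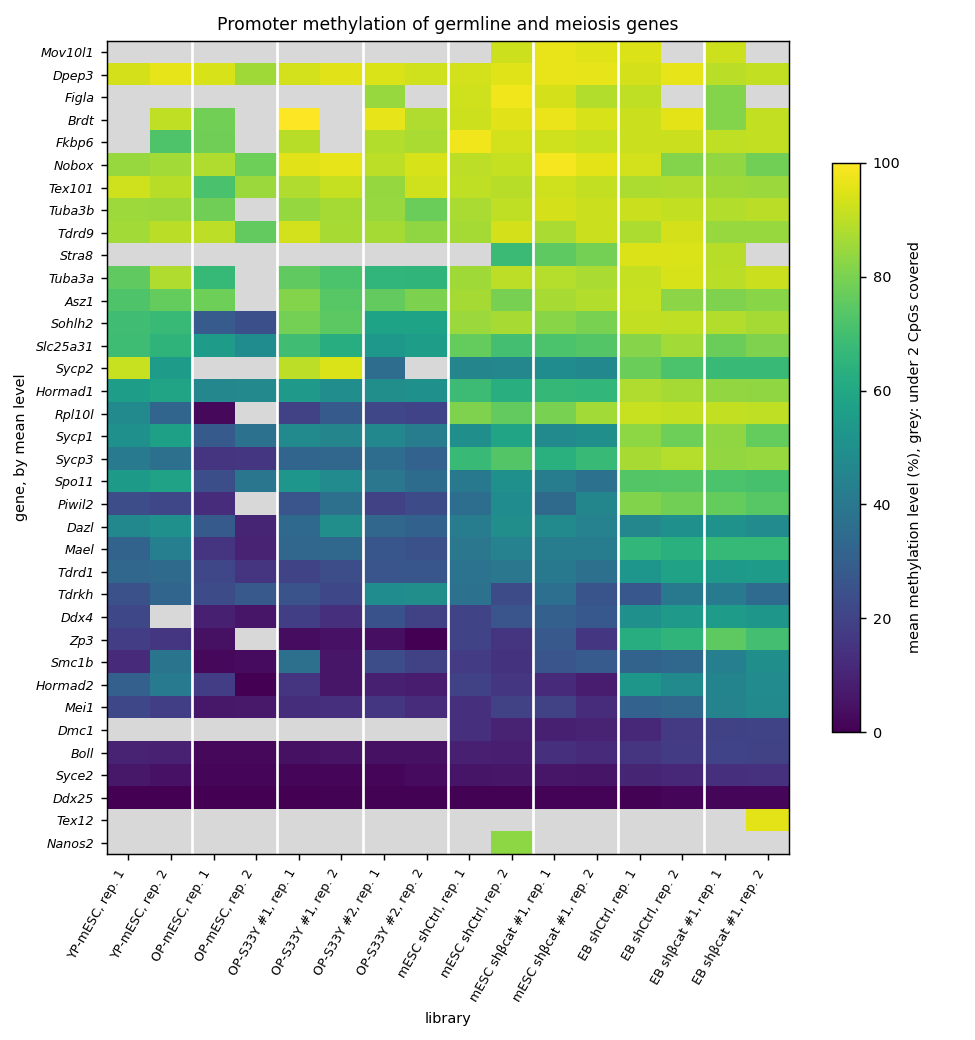
Mean promoter methylation (colour, percent) of the 36 members with a level in any library (rows, ordered by mean level) in the 16 libraries (columns). Dpep3, Nobox and Tex101 are high in every library, Ddx25, Syce2 and Boll are low, and many members between them are lowest in OP-mESC and highest in the EBs. Grey cells have fewer than 2 covered CpGs.

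The 3 most methylated members with a level in every group were Dpep3, Nobox and Tex101. Dpep3, which encodes a testis dipeptidase on the cell surface, was at 85.7% to 96.8% in the 16 libraries. Nobox, a homeobox factor of the oocyte, was at 77.7% to 98.4%. Tex101, a surface protein of male germ cells, was at 71.3% to 93.0%, with its lowest value in OP-mESC replicate 1.

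The 3 least methylated members were Ddx25, Syce2 and Boll. Ddx25, an RNA helicase of spermatids, stayed between 0 and 1.68% in all 16 libraries, with 658 to 1925 reads behind each value. Syce2, a protein of the central element of the synaptonemal complex, was at 6.28% and 4.75% in YP-mESC, 1.74% and 1.39% in OP-mESC and 13.4% and 14.2% in EB shβcat #1. Boll, an RNA-binding protein of the DAZ family, was at 9.74% and 9.17%, 2.11% and 2.17%, and 20.2% and 19.6% in the same groups. The group means of Syce2 and Boll were lowest in OP-mESC and highest in EB shβcat #1, and Ddx25 stayed near 0.

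Members with too few CpGs could be followed in part. Rec8, Stk31, Syce1, Piwil1, Dnd1 and Nanos3 had no level in any library. Tex12 had a level in 1 library (95.8% in EB shβcat #1 replicate 2) and Nanos2 in 1 (83.0% in mESC shCtrl replicate 2). Mov10l1, a helicase needed to make piRNAs, was at 92.5% to 96.7% in the 5 libraries that read it. Stra8, the factor that starts meiosis, was at 68.2% to 94.6% in 6 libraries, and Dmc1, the meiotic recombinase, at 8.74% to 20.4% in 8, all of them shRNA lines. Figla, a transcription factor of the oocyte, was at 81.2% to 97.9% in 7 libraries.

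The members' levels went with their CpG content. The observed over expected CpG ratio in the 2 kb around the TSS ranged from 0.159 at Nanos3 to 0.830 at Boll. Across the 20 members with a level in every library, the ratio and the mean level had a Pearson correlation of -0.62 and a Spearman correlation of -0.55. Across the 11525 promoters the values were -0.52 and -0.45. These are correlations across genes of the same libraries and are given as descriptions. With a ratio from 0.3 to 0.6, all 13 members with a level in every library had a mean level over 20%, against 16.1% of the 4056 promoters in that range, and with a ratio of at least 0.6, 4 of 7 members did, against 1.19% of 6543 promoters.

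**Figure D3:**
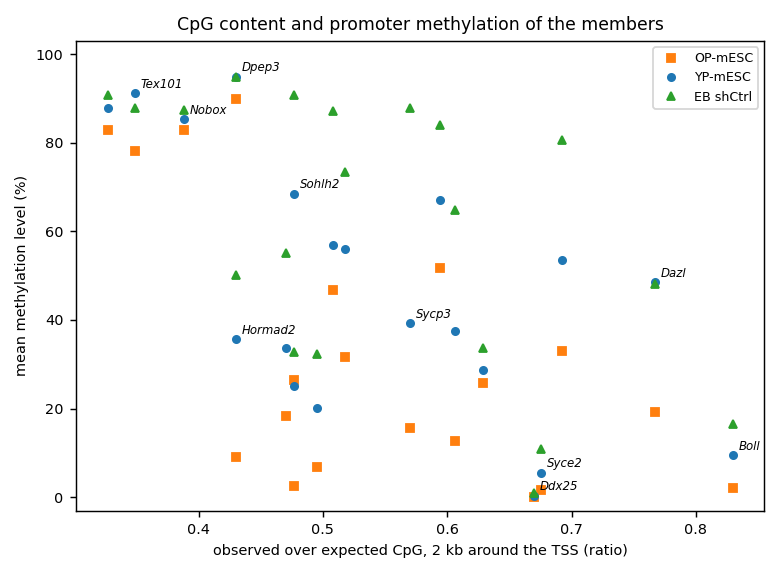
Promoter methylation (percent, mean of 2 libraries) of the 20 members with a level in every library against the observed over expected CpG ratio in the 2 kb around the TSS, in YP-mESC, OP-mESC and EB shCtrl. Levels fall from Tex101, Nobox and Dpep3 on the left to Syce2, Ddx25 and Boll on the right, with wide scatter between.

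The 2 motifs of PRC1.6 were searched within 250 bases on either side of the TSS. CACGTG, which reads the same on both strands, was present at 20 of the 42 members (47.6%) and at 10.3% of the 22359 promoters. GGCGGGAA, searched on both strands, was present at 7 members (16.7%) and at 4.44% of all promoters. Ddx4, Hormad1, Slc25a31, Syce2 and Tex12 held both, and the motifs can overlap only at their end bases. Among promoters with a CpG ratio of at least 0.3, the share with CACGTG was 51.3% for 39 members and 12.9% for 14449 promoters. In the sequences above, CACGTG starts 46 and 25 bases before the TSS of Sycp3, 29 bases before that of Ddx4 and 223 bases before that of Mael. In the search on either side of the TSS, CACGTG was also found at Ddx25 and Syce2. Their mean levels over the groups were 0.715% and 5.94%. It was found at Tdrd9 too, with 87.6%, but not at Dpep3, Nobox or Tex101. The Ddx25 site does not lie in the bases shown above.

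For the comparisons, a promoter was tested on the CpGs covered by at least 10 reads in all 4 libraries, with a quasi-binomial test of the summed reads whose overdispersion was moderated by limma over all promoters. It was called where the Benjamini-Hochberg adjusted p was below 0.05 and the mean levels differed by more than 10 percentage points. Levels in the comparisons are means over these shared CpGs and can differ from those above, which are over each library's own CpGs. The smallest p that exact permutation of 4 libraries allows for 1 gene is 0.33, so the calls rest on the spread pooled over promoters. The labels do not say whether replicates are separate cultures, and the p-values measure the spread between these libraries.

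Long culture went with lower methylation at germline promoters. All 20 members tested were lower on average in OP-mESC than in YP-mESC, with a median difference of -15.4 percentage points, and 10 of the 20 were called lower. Of all 11493 promoters tested, 2.28% were called lower and 0.0522% higher, with a median difference of -0.08, and 6569 lay below 0. Most promoters are unmethylated and cannot fall: of the 970 promoters with a mean level over 20%, 15.3% were called lower, with a median of -7.87. Of these 970, 836 lay below 0, so most methylated promoters shared the members' direction. Here and below, shares and medians of members are over all members tested, including those not over 20%. Of the 20 members here, 13 were over 20%. No member was called higher, by this test or by limma on logit levels. At an unadjusted p under 0.05, 16 of the 20 members were lower, beside 1719 of 11493 promoters and 434 of the 970. At the same p, 0 members were higher, beside 108 of 11493 promoters and 19 of the 970.

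Sohlh2 showed the largest difference between OP-mESC and YP-mESC. On 21 shared CpGs it was at 30.4% and 24.4% in OP-mESC and at 65.2% and 59.9% in YP-mESC. The OP-mESC libraries lay below both YP-mESC libraries and the level fell by 35.2 points (standard error 4.03, adjusted p = 0.00148).

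Among the genes of meiotic chromosomes, 5 of 8 tested were called lower in OP-mESC. Spo11, which makes the double-strand breaks of meiosis, was at 32.8% and 39.1% in OP-mESC and at 66.2% and 71.7% in YP-mESC on 5 CpGs, and fell by 32.98 points (standard error 4.19, adjusted p = 0.00536). Sycp3, a lateral element protein of the synaptonemal complex, was at 17.7% and 15.9% against 35.5% and 35.5% on 12 CpGs, and fell by 18.7 points (standard error 0.907, adjusted p = 0.00428). Neither gene overlapped between the groups. Sycp1, the transverse filament protein, fell by 19.9 points (adjusted p = 0.0184), Mei1, which is needed for meiotic breaks, by 14.9 points (adjusted p = 0.00772), and Hormad2, a protein of the chromosome axis, by 15.6 points (adjusted p = 0.0466). Hormad2 rested on 4 CpGs with 43 reads in the least covered library, and its YP-mESC replicates lay at 23.9% and 8.94%. Hormad1 differed by -15.3 points and Smc1b by -7.30, and neither passed the test.

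Among the piRNA genes, which silence transposons in the germline, 3 of 4 tested were called lower. Tdrkh, a Tudor protein that helps trim piRNAs, was at 23.4% and 28.0% in OP-mESC and at 51.8% and 54.2% in YP-mESC, on 3 CpGs, and fell by 27.4 points (standard error 2.60, adjusted p = 0.0116). Mael, a protein of the nuage where piRNAs are made, was at 14.7% and 9.72% against 40.5% and 27.3% on 8 CpGs, and fell by 21.7 points (standard error 7.05, adjusted p = 0.00688). Both genes were separated between the groups, though the YP-mESC replicates of Mael differed by more than those of Tdrkh. Tdrd1 fell by 15.4 points (adjusted p = 0.00617), and Tdrd9, at 90.0% and 75.9% in OP-mESC and 85.9% and 89.8% in YP-mESC, overlapped between the groups. Slc25a31, an ADP/ATP carrier of the testis, was the other member called and fell by 21.3 points (adjusted p = 0.0138). None of the 3 germ cell RNA-binding genes tested (Dazl, Boll and Ddx25) was called. On the shared CpGs they were at 8.97%, 7.99% and 0.449% in YP-mESC, so none could fall by more than 10 points. Over each library's own CpGs, Dazl was at 46.8% and 50.4% in YP-mESC, from 54 and 72 CpGs. In OP-mESC it was at 28.2% and 10.4%, from 39 and 14 CpGs, against 12 CpGs in the test.

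The members not called included those at the ends of the range. Dpep3, Nobox and Tex101 differed by -3.61, -4.45 and -16.9 points, and Ddx25, Syce2 and Boll by -0.33, -2.89 and -5.86 points. Boll was at 2.11% and 2.17% in OP-mESC and at 8.64% and 7.35% in YP-mESC with an adjusted p of 0.00362, and Syce2 had an adjusted p of 0.0367, so that the rule of 10 points and not the test kept both from a call. The OP-mESC calls depend on the model and on 1 library: limma on logit levels called 0 of the 20 members and 0 of all promoters. Without YP-mESC replicate 1 the test called fewer members and also fewer of all promoters.

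**Figure D4:**
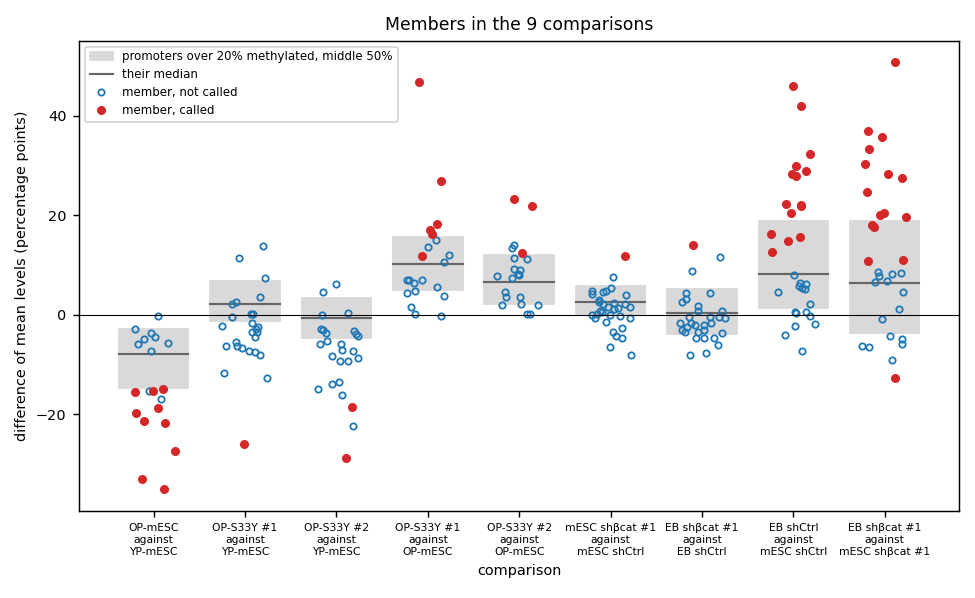
Difference of mean levels (percentage points, first group minus second) of each member tested in the 9 comparisons, with called members filled. Grey bars span the middle 50% of the promoters with a mean level over 20% and the line is their median. Members lie below 0 in OP-mESC against YP-mESC, mostly above 0 in the clones against OP-mESC, and up to 50.8 points above 0 in EBs against mESCs.

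The S33Y clones were compared with the OP-mESCs, which were kept in long culture without the transgene. These comparisons share the OP-mESC libraries with the one above. In OP-S33Y #1, 6 of 21 members (28.6%) were called higher than in OP-mESC, beside 3.29% of all 11887 promoters and 27.8% of the 986 over 20% methylated. In OP-S33Y #2, 3 of 21 (14.3%) were called higher, beside 1.28% of 11905 promoters and 9.16% of the 950 over 20% methylated. The members' shares are over all 21 tested. Of these, 13 were over 20% methylated in the comparison of OP-S33Y #1 and 12 in that of OP-S33Y #2. The members' median differences were 6.997 and 7.97 points, and those of the methylated promoters were 10.3 and 6.51. No member was called lower in either clone, beside 0.0337% and 0.0672% of all promoters, and limma called 0 members of either direction. In each clone 0 members were lower at an unadjusted p under 0.05, beside 137 of 11887 and 87 of 11905 promoters. At the same p, 17 and 13 of the 21 members were higher, beside 1824 and 1724 of these promoters. Of those over 20% methylated, 587 of 986 and 377 of 950 were higher.

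Sohlh2 was again the most changed member in OP-S33Y #1. It was at 76.6% and 71.8% in OP-S33Y #1, 49.3% and 49.4% in OP-S33Y #2 and 30.4% and 24.4% in OP-mESC on the same number of CpGs. It was higher by 46.8 points in OP-S33Y #1 (standard error 3.85, adjusted p = 7.73e-06) and by 22.0 points in OP-S33Y #2 (standard error 3.01, adjusted p = 0.0011), with no overlap between any of the 3 groups. The difference between the clones was not tested.

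Spo11, Tdrkh, Mael, Slc25a31 and Sycp3 were the other members called higher in OP-S33Y #1. Spo11 was at 59.6% and 66.1%, higher than in OP-mESC by 26.9 points (standard error 4.50, adjusted p = 0.00345). In OP-S33Y #2 its replicates lay at 57.5% and 36.9% and overlapped those of OP-mESC. Tdrkh was at 46.8% and 41.0% in OP-S33Y #1 and at 48.5% and 49.6% in OP-S33Y #2, higher than in OP-mESC by 18.2 points (adjusted p = 0.0409) and 23.4 points (adjusted p = 0.0407). Both clones lay above both OP-mESC libraries at this gene. Mael was at 21.6% and 36.7% in OP-S33Y #1, higher by 17.0 points (standard error 7.93, adjusted p = 0.00837), with replicates that lay far apart, and Slc25a31 was higher by 16.2 points (adjusted p = 0.0201). Sycp3 was at 30.7% and 26.5% in OP-S33Y #1 and at 31.4% and 27.0% in OP-S33Y #2, higher by 11.8 points (adjusted p = 0.0192) and 12.4 points (adjusted p = 0.0298). These counts moved when single libraries of either clone or of OP-mESC were left out. The number called over all promoters moved with them, so the changes do not describe the members alone.

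Against YP-mESC, whose libraries also served in the comparison with OP-mESC, few members of the clones passed the call. In OP-S33Y #1, 1 of 26 members (3.85%) was called lower, beside 0.0772% of 12954 promoters and 0.515% of the 1552 over 20% methylated. The members' median difference was -3.19 points. In OP-S33Y #2, 2 of 26 members (7.69%) were called lower, beside 0.561% of 13015 promoters and 3.12% of the 1538 over 20% methylated. Their median was -6.50 points. The promoters over 20% methylated had medians of 2.09 and -0.70 points. No member was called higher in either clone, beside 0.147% and 0.261% of all promoters, and limma called 0 in either direction. At an unadjusted p under 0.05, 8 members were lower and 3 higher in OP-S33Y #1, beside 559 and 515 of 12954 promoters. Of the 1552 over 20% methylated, 102 were lower and 273 higher. In OP-S33Y #2, 16 members were lower and 0 higher, beside 804 and 618 of 13015 promoters. Of the 1538 over 20% methylated, 219 were lower and 161 higher. In this clone 22 of the 26 members lay below 0, beside 5267 of 13015 promoters and 852 of the 1538.

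Hormad2 was low in both clones. On 12 CpGs it was at 9.88% and 6.08% in OP-S33Y #1, 5.40% and 4.76% in OP-S33Y #2 and 30.7% and 37.3% in YP-mESC. It fell by 26.0 points in OP-S33Y #1 (standard error 3.85, adjusted p = 0.0304) and by 28.9 points in OP-S33Y #2 (standard error 3.36, adjusted p = 9.07e-05), and no library of either clone reached those of YP-mESC. Spo11 was at 39.7% and 35.3% in OP-S33Y #2 and at 54.5% and 57.6% in YP-mESC, and fell by 18.6 points (standard error 2.70, adjusted p = 0.00387). Sohlh2 differed from YP-mESC by 11.4 points in OP-S33Y #1 and by -13.5 points in OP-S33Y #2, and neither passed the test. The Hormad2 call in OP-S33Y #1 was lost without its replicate 2 and without either YP-mESC replicate, which left 0 members, and on CpGs shared by all 16 libraries the Hormad2 difference was -8.64 points and not called in OP-S33Y #1 and -11.1 points in OP-S33Y #2 (adjusted p = 0.0356). Limma called 0 in either clone. For OP-S33Y #2 the count was 1 without its replicate 1, 6 without YP-mESC replicate 1 and 5 without YP-mESC replicate 2.

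The β-catenin shRNA left most germline promoters without a call in mESCs. Of 32 members, 1 (3.1%) was called higher, beside 0.292% of 14404 promoters and 1.66% of the 2353 over 20% methylated. Lower calls were 0, beside 0.0417% of all promoters and 0.212% of those over 20% methylated. The median difference was 1.27 points, below that of the promoters over 20% methylated, 2.60 points. At an unadjusted p under 0.05, 2 members were lower and 5 higher, beside 180 and 791 of 14404 promoters. Of the 2353 over 20% methylated, 54 were lower and 478 higher. Limma called 0 members. The member called was Smc1b, the meiotic cohesin subunit, at 28.0% and 28.7% in mESC shβcat #1 and at 18.0% and 15.2% in mESC shCtrl on 21 CpGs. It was higher by 11.8 points (standard error 1.43, adjusted p = 0.038), and the groups did not overlap. This call was lost without either replicate of mESC shβcat #1 and without mESC shCtrl replicate 2, and on 6 CpGs shared by all 16 libraries the difference was 3.30 points.

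In EBs the shRNA also moved few members. Of 31 members, 1 (3.23%) was called higher, beside 0.984% of 14125 promoters and 3.41% of the 2987 over 20% methylated. Lower calls were 0, beside 0.113% of all promoters and 0.502% of those over 20% methylated. The median difference was -1.70 points, and that of the promoters over 20% methylated was 0.31. At an unadjusted p under 0.05, 2 members were lower and 4 higher, beside 314 and 1371 of 14125 promoters. Of the 2987 over 20% methylated, 280 were lower and 487 higher. Limma called 0 members. Mei1 was at 44.7% and 47.7% in EB shβcat #1 and at 31.3% and 33.1% in EB shCtrl on 15 CpGs. It was higher by 14.004 points (standard error 1.76, adjusted p = 0.0446), with no overlap, and the call was lost without EB shβcat #1 replicate 2 or either EB shCtrl replicate. Smc1b was at 39.6% and 44.9% against 27.9% and 33.5%, a difference of 11.5 points with an adjusted p of 0.169.

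The effect of the shRNA in EBs was set against that in mESCs by an interaction term over the 8 libraries. Of 31 members 0 were called, and 0% of 13983 promoters were called in all, while 7 members and 965 promoters had an unadjusted p under 0.05. The smallest p among members was that of Slc25a31, with a difference of 2.79 points in mESCs and -4.61 points in EBs (adjusted p = 0.404).

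Differentiation went with a gain of methylation at many of the members. In EB shCtrl against mESC shCtrl, 15 of 31 members (48.4%) were called higher, and in EB shβcat #1 against mESC shβcat #1 also 15 of 31. These 2 comparisons use the same 8 libraries as the shRNA comparisons. Of all promoters 10.1% and 11.9% were called higher, and of those over 20% methylated 40.3% and 40.3%. The members' median differences were 7.93 and 8.53 points over all 31 tested, of which 27 were over 20% methylated in each line. Those of the promoters over 20% methylated were 8.20 and 6.47. That cut uses the mean level of the groups compared, so a high EB level can bring a promoter over it. In the shCtrl lines 0 members were called lower, beside 0.0842% of promoters, and limma called 0. There, 0 members were lower at an unadjusted p under 0.05, beside 84 of 14249 promoters. At the same p, 19 of the 31 were higher, beside 4059 of 14249 promoters and 1350 of the 2596 over 20% methylated. In the shβcat #1 lines 1 member (3.23%) was called lower, beside 1.39% of promoters and 7.16% of those over 20% methylated.

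The largest gains were at Zp3 and Piwil2. Zp3, the sperm receptor of the zona pellucida, was at 62.2% and 65.4% in EB shCtrl and at 20.4% and 15.0% in mESC shCtrl on 4 CpGs, all in a coding exon. It rose by 46.0 points (standard error 3.12, adjusted p = 1.39e-08), and in the shβcat #1 lines by 50.8 points (standard error 6.58, adjusted p = 1.62e-06). Piwil2, an Argonaute protein that binds piRNAs, was at 80.9% and 78.9% in EB shCtrl and at 36.2% and 39.6% in mESC shCtrl on 7 CpGs upstream of its TSS. It rose by 42.0 points (standard error 2.00, adjusted p = 4.72e-11) and in the shβcat #1 lines by 35.7 points (standard error 5.09, adjusted p = 4.2e-07). For both genes all EB libraries lay above all mESC libraries.

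Of the 11 genes of meiotic chromosomes tested, 8 were called higher in shCtrl and 9 in shβcat #1. Hormad2 was at 52.8% and 47.6% in EB shCtrl and at 19.8% and 15.9% in mESC shCtrl on 19 CpGs, and rose by 32.4 points (standard error 3.23, adjusted p = 3.53e-10). In the shβcat #1 lines it was at 45.0% and 48.3% in EBs and 11.9% and 7.47% in mESCs, a rise of 37.0 points (standard error 2.75, adjusted p = 6.21e-09). The EB libraries lay above the mESC libraries in both lines, without overlap. Sycp1 was at 82.1% and 79.7% in EB shβcat #1 and at 47.1% and 48.1% in mESC shβcat #1, a rise of 33.3 points (standard error 1.31, adjusted p = 2.08e-06). Spo11, Sycp2, Hormad1, Sycp3, Smc1b and Mei1 rose in both lines, by 15.6 to 28.8 points in shCtrl. Dmc1 was at 19.8% and 20.4% against 8.74% and 9.45% in the shβcat #1 lines, a rise of 10.97 points (adjusted p = 0.00599), while in the shCtrl lines it overlapped between EBs and mESCs.

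Of the 4 germ cell RNA-binding genes tested, 1 was called higher in each line. Ddx4, the helicase also called Vasa, was at 49.1% and 51.3% in EB shCtrl and at 20.1% and 20.3% in mESC shCtrl on 23 CpGs, and rose by 30.0 points (standard error 1.08, adjusted p = 1.76e-11). Dazl, a translation regulator of germ cells, differed by 7.93 and 8.29 points without a call, and Boll by 6.15 and 7.74 points, with adjusted p of 9.16e-06 and 0.00011 that stayed outside the calls for their size. Ddx25 differed by 0.38 and 1.09 points. Among the piRNA genes 3 of 6 were called in each line: Piwil2, Mael (higher by 22.0 and 28.3 points) and Tdrd1 (higher by 22.4 and 17.7 points).

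Among the transcription factors and chromatin readers (Sohlh2, Brdt and Nobox) 0 of 3 were called higher in either line. On the CpGs tested, Brdt and Nobox were at 94.3% and 91.9% in mESC shCtrl and at 97.9% and 96.9% in mESC shβcat #1. Neither of these genes had room to rise by the difference that a call needs. Sohlh2 was at 85.0% and 85.0% in mESC shCtrl and at 89.4% and 91.3% in EB shCtrl, and in the shβcat #1 lines it differed by 8.25 points with an adjusted p of 0.00285. Nobox was called lower in the shβcat #1 lines, at 82.9% and 85.4% in EBs and 98.4% and 95.3% in mESCs, a fall of 12.8 points (standard error 1.99, adjusted p = 0.00378) on 2 CpGs. Of the remaining genes, Zp3 and Slc25a31 were called higher in both lines and Rpl10l, a testis copy of a ribosomal protein gene, in shCtrl, by 12.7 points (adjusted p = 0.000982). The EB results held with limma, which called the same 15 members in shCtrl and 15 of the 16 in shβcat #1, all but Slc25a31. Without EB shβcat #1 replicate 2 there were 2 members called lower.

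Among the 20 members with a level in every library, the 6 with the largest range of group means over each library's own CpGs were Sycp3, Sohlh2, Mael, Sycp1, Smc1b and Spo11. Zp3, Rpl10l and Piwil2, which lacked a level in 1 library, had ranges of 70.6, 70.4 and 58.6 points over their other 7 groups. The levels of the 6 are given here on the CpGs that all 16 libraries share, so that the groups can be read side by side. Sycp3 was at 35.5% and 35.5% in YP-mESC and 57.4% and 65.4% in mESC shCtrl, then at 87.1% and 87.2% in EB shCtrl and 83.9% and 81.9% in EB shβcat #1. Sohlh2 was at 82.0% and 81.8% in mESC shCtrl and at 88.5% and 91.6% in EB shCtrl, against 65.2% and 59.9% in YP-mESC. The control shRNA line thus lay above the untransduced YP-mESCs at both genes, in another set of libraries, and no test was made between the sets.

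At Mael and Sycp1 the YP-mESC and mESC shCtrl libraries overlapped, and at Spo11 they did not. Mael was at 40.5% and 27.3% in YP-mESC, 28.0% and 29.0% in mESC shCtrl and 63.4% and 65.2% in EB shCtrl. Sycp1 was at 50.2% and 55.6%, 57.7% and 50.8%, and 82.6% and 84.4% in the same groups. Spo11 was at 66.2% and 71.7%, 60.2% and 57.5%, and 88.0% and 91.1%. The EBs lay above every mESC library at these 3 genes. OP-mESC lay below every other library at Mael (14.7% and 9.72%) and Sycp1 (28.4% and 37.6%), and at Spo11 it overlapped OP-S33Y #2.

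Smc1b depended on which CpGs were read. On its 6 shared CpGs it was at 11.9% and 7.69% in YP-mESC, 5.49% and 5.65% in mESC shCtrl and 29.1% and 33.6% in EB shβcat #1, while over each library's own CpGs the YP-mESC replicates read 11.9% from 6 CpGs and 38.4% from 16. Sycp2 had the same property, with 91.6% from 5 CpGs and 54.9% from 20 in YP-mESC, and has no level on CpGs shared by all libraries. Rpl10l was read at 47.5% and 32.6% in YP-mESC, 2.30% in OP-mESC replicate 1, 80.6% and 76.1% in mESC shCtrl and 91.4% and 90.7% in EB shCtrl, with no level in OP-mESC replicate 2.

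**Figure D5:**
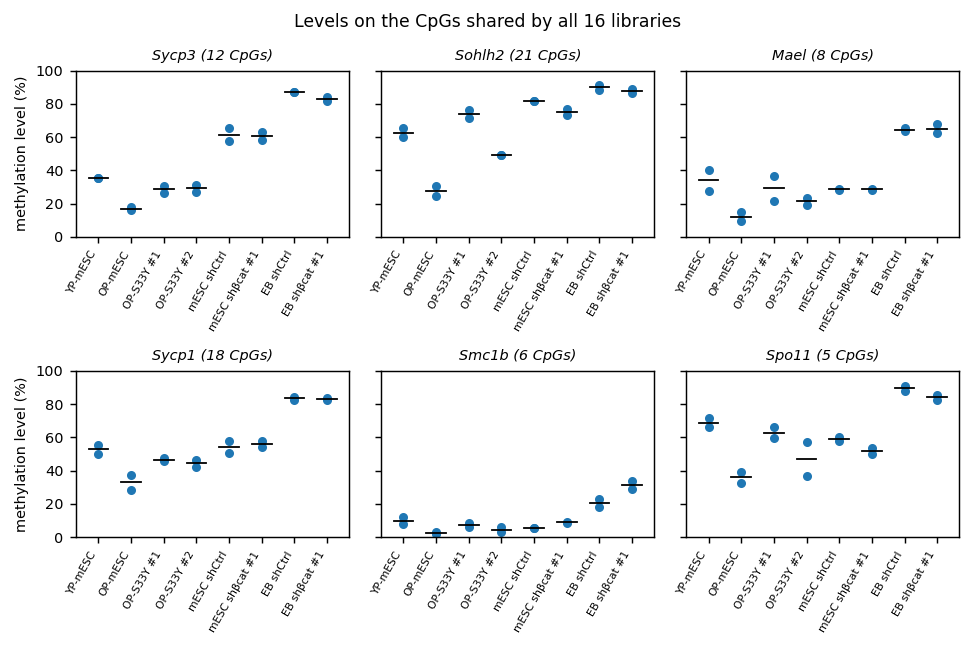
Methylation level (percent) on the CpGs shared by all 16 libraries, by group, of the 6 members that had the largest range of group means over each library's own CpGs among those with a level in every library. Points are the 2 libraries of a group and bars their mean. By group mean OP-mESC is lowest and an EB group is highest for each gene, with mESC shCtrl above YP-mESC at Sycp3 and Sohlh2.

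Other genes of the germline programme were counted in the same tests. Of 47 further genes named for egg, sperm and meiosis functions, 15 could be tested in OP-mESC against YP-mESC. Of these, 4 (26.7%) were called lower and 0 higher, with a median difference of -5.51 points. Beside them, 2.28% of all promoters and 15.3% of those over 20% methylated were called lower. The 4 were Tex19.1, Rnf17, Taf7l and D1Pas1. Against OP-mESC, 1 of 15 was called higher in OP-S33Y #1 and 0 of 15 in OP-S33Y #2, with medians of 3.92 and 0.97 points. The shares were 3.29% and 1.28% of all promoters and 27.8% and 9.16% of those over 20% methylated. At an unadjusted p under 0.05, 7 and 4 of these genes were higher, beside 1824 of 11887 and 1724 of 11905 promoters. Against YP-mESC, 1 of 17 and 3 of 18 were called lower in the clones, with medians of -3.12 and -4.93 points. Of all promoters 0.0772% and 0.561% were called lower, and of those over 20% methylated 0.515% and 3.12%. The β-catenin shRNA gave 0 of 22 calls in mESCs, beside 0.292% of all promoters higher and 0.0417% lower. There, 4 were higher and 0 lower at an unadjusted p under 0.05, beside 791 and 180 of 14404 promoters. In EBs 1 of 21 was called higher, beside 0.984% of all promoters and 3.41% of those over 20% methylated. In EBs against mESCs 9 of 21 (42.9%) were called higher in shCtrl and 11 of 22 in shβcat #1, beside 10.1% and 11.9% of all promoters and 40.3% and 40.3% of those over 20% methylated, with medians of 8.69 and 8.57 points. Among 20 genes that encode repressors of germline genes, such as the DNA methyltransferases, 12 to 18 had tested promoters and 0 were called in any of the 9 comparisons, with medians from -0.18 to 0.63 points. At most 1 of them was over 20% methylated in a comparison, so that nearly all of them had little or no room to be called lower. At an unadjusted p under 0.05, between 0 and 2 of them were lower and between 0 and 5 higher in a comparison. The 5 higher were of 18 in each comparison of EBs against mESCs, beside 4059 of 14249 and 4923 of 14242 promoters. The 2 lower were of 12 in OP-mESC and of 17 in OP-S33Y #2 against YP-mESC, beside 1719 of 11493 and 804 of 13015 promoters.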

How the data were processed

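The 42 genes, their roles and the gene lists were chosen with earlier results of these data known. According to the submitters' processing notes, the reads were processed with CASAVA (1.8.2), Trim Galore (0.2.8) and Bismark (0.7.9) on mm9. The authors deposited, for each cytosine with at least 10 reads, its read count and the percent of reads methylated and unmethylated, per library and without normalization. Methylated reads were recomputed from count and percent, and the 2 strands of a CpG were summed. At 10 reads a CpG's percentage moves in steps of 10 points, and the handling of duplicate reads is not given in the sources used here. TSSs came from GENCODE vM1 (the mm9 assembly), and all CpGs lay at a CG of that genome.

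Groups followed the labels. Each of 9 comparisons was fitted to reads summed over the CpGs of a promoter shared by the 4 libraries (at least 2 CpGs), as a quasi-binomial logistic model with the overdispersion moderated by limma (3.58.1, R 4.3.3) in Python 3.11.15. CpGs on the same read are counted separately. A promoter was called at a Benjamini-Hochberg adjusted p below 0.05 over all promoters and a difference over 10 points. The interaction of shRNA and cell type was fitted to 8 libraries. The model was tested on simulated data with known changes: in OP-mESC against YP-mESC, over 11493 promoters, 53.7% of 95 promoters changed by 15 points and 95.2% of 105 changed by 25 points were called. The changed promoters were drawn from those of intermediate level, so these rates do not describe members of low or high level. The simulated overdispersion was that fitted by the same model, so the simulation cannot show whether that spread is right. Values are given in every library for up to 4 called members with the largest difference in each comparison, and, among members with a level in every group, the 6 with the largest range of group means and the 3 most and 3 least methylated. Others are given by counts, or were chosen after their values were seen. The alternatives were a minimum of 20 reads, a window of 500 bp, at least 5 CpGs, the replicate block, limma on logit levels (offset of 1 point), 1 shared overdispersion, a difference over 25 points, CpGs shared by all 16 libraries, read-weighted levels and each replicate left out.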

Additional observations from a re-analysis of the deposited data

How the results depend on the processing

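The EB results held best: among 31 members in each line, 13 to 16 were called higher when single libraries were left out, against 15, and a difference over 25 points left 7 in each. No result reversed. The replicate numbers mark no shared animal, litter or day in the labels, and same-numbered libraries did not deviate together (correlations of replicate deviations from -0.020 to 0.051). With the replicate block, 0 members were called lower in OP-mESC against YP-mESC, 0 in OP-S33Y #1 and 5 in OP-S33Y #2 against YP-mESC, 2 and 1 were called higher in the clones against OP-mESC, 2 in EB shβcat #1, and the block changed no other count of members by over 1.5 times. The cause was not tested, though the block leaves 1 residual degree of freedom.

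Limma gave 0 for every count called in OP-mESC, the clones, mESC shβcat #1 and EB shβcat #1. Over all promoters limma called at most 4 in any of these comparisons. A difference over 25 points left 3 members in OP-mESC, 1 in OP-S33Y #2 against YP-mESC, 2 and 0 in the clones against OP-mESC, 0 higher in either shRNA comparison and 0 lower in EB shβcat #1 against mESC shβcat #1. With at least 20 reads the counts were 5 lower in OP-S33Y #2 against YP-mESC, 1 higher in OP-S33Y #2 against OP-mESC, 0 in mESC shβcat #1 and 1 lower in EB shCtrl. At least 5 CpGs gave 0 lower in OP-S33Y #1 against YP-mESC, 1 higher in OP-S33Y #2 against OP-mESC and 0 lower in EB shβcat #1 against mESCs. The window of 500 bp gave 0 higher in mESC shβcat #1 and 0 lower in EB shβcat #1 against mESCs. A shared overdispersion gave 1 higher in OP-S33Y #1 and 4 lower in OP-S33Y #2 against YP-mESC and 0 higher in EB shβcat #1. CpGs shared by all libraries gave 0 lower and 1 higher in OP-S33Y #1 and 4 lower in OP-S33Y #2 against YP-mESC, 0 higher in mESC shβcat #1 and 1 lower in EB shCtrl. Read-weighted levels gave 0 higher in mESC shβcat #1.

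Leaving out single libraries, counts ran from 2 to 11 lower in OP-mESC, 0 to 1 and 1 to 6 lower in OP-S33Y #1 and #2 against YP-mESC, 1 to 9 and 0 to 7 higher in the clones against OP-mESC, 0 to 1 higher in each shRNA comparison and 1 to 2 lower in EB shβcat #1 against mESC shβcat #1. For OP-mESC and the clones, the number called over all promoters moved in the same fits, so these ranges do not describe the members alone. OP-mESC replicate 2 covered 413266 CpGs with a median of 36 reads, and 20 members could be tested in OP-mESC against YP-mESC. Without this library 26 could. Of the named members' differences, 226 of 299 values under the alternatives kept their call and 73 lost it, all in the same direction.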
